A study of Mus musculus with 24 samples.

Results

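F-box proteins other than the known atrophy genes Fbxo32, Fbxo30, Fbxo40 and Fbxo21 were examined in mouse calf muscle exposed to a glucocorticoid. The members were all genes whose annotated symbol starts with Fbxo, Fbxl or Fbxw and a number, without those 4. The probe annotation named 59 such genes, measured by 102 probes. A gene was kept when at least 1 of its probes had a detection p under 0.05 on 3 or more of the 24 arrays. This left 37 genes with 50 probes, out of 11010 named genes and 16262 features tested in all.

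The muscles were triceps surae of C57/Bl6 mice aged 4 months, either MuRF1 knockout or wild type. MuRF1 is the muscle ubiquitin ligase encoded by Trim63. Mice had received dexamethasone, a synthetic glucocorticoid, in the drinking water at 3 mg/kg for 3 or 14 days, and untreated littermates were housed alongside for each length of treatment. The 8 groups were treated knockout, untreated knockout, treated wild type and untreated wild type, each at 3 and at 14 days, with 3 Illumina beadchips a group. The labels do not give how the knockout allele was made or in which cells it is deleted, nor whether the samples of a group are separate animals, so p values measure the spread between samples.

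F-box proteins are the exchangeable part of SCF ubiquitin ligases, in which the cullin Cul1 holds the RING protein Rbx1 at one end and Skp1 with an F-box protein at the other. The F-box protein binds the substrate and so decides which protein is ubiquitinated. Fbxw proteins carry WD40 repeats, Fbxl proteins leucine-rich repeats and Fbxo proteins other domains. In skeletal muscle the family is best known for Fbxo32 (atrogin-1), which is induced in many forms of wasting.

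The labels were checked first. Trim63 lay between 4.46 and 5.16 (log2 signal) on the 12 knockout arrays, against 8.07 to 9.95 on the 12 wild-type arrays. Fkbp5, a direct glucocorticoid receptor target, was higher by 2.89 (log2, SE 0.11) in treated than in untreated muscle over the 4 comparisons (limma adjusted p = 1.04e-14). The skeletal muscle markers summed to 147700 to 182100 signal units on treated arrays and 137800 to 167800 on untreated arrays, over the 6 of 7 that were measured. Of these, 1 was higher and 1 lower with dexamethasone over the 4 comparisons (limma adjusted p under 0.05). In wild type at 3 days 1 was lower. Pairs of arrays of 1 group correlated with r between 0.948 and 0.992, and 29.0% to 36.1% of probes were detected on an array. Treated knockout array 3 of the 3-day arm stood apart from all others on the first principal component. Knockout differences at 3 days without it are given for Fbxo31, Fbxo6 and Fbxo45.

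The members were seen unevenly by subfamily. Of the Fbxo genes 20 of 29 were kept, of the Fbxl genes 10 of 14 and of the Fbxw genes 7 of 16. The 22 genes without a kept probe were Fbxl4, Fbxl13, Fbxl19, Fbxl21, Fbxo5, Fbxo15, Fbxo16, Fbxo17, Fbxo22, Fbxo27, Fbxo41, Fbxo43, Fbxo48, Fbxw10, Fbxw11, Fbxw13, Fbxw14, Fbxw15, Fbxw18, Fbxw19, Fbxw21 and Fbxw22. None of the probes of 17 of them was detected on any array, and the nearest to the limit were Fbxo27 and Fbxo48, each detected on 2 arrays. No kept gene sat at exactly 3 arrays. Fbxl22 is not named in the probe annotation and was not analysed here. Of the 37 kept genes 25 were detected on all 24 arrays, and only Fbxl18 and Fbxw5, with 10 arrays each, on fewer than 12. The probes of highest mean log2 signal were those of Fbxo6 at 10.2, Fbxo9 at 9.10, Fbxo3 at 8.74, Fbxo31 at 8.44, Fbxo45 at 8.31 and Fbxo34 at 7.29, which is a description, since signals of different probes do not rank genes.

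Averaged over both genotypes and both times, dexamethasone changed 5 of the 37 members past an adjusted p of 0.05, with Fbxo31 and Fbxo6 higher and Fbxw7, Fbxw17 and Fbxo3 lower. Over all features 13.1% passed in the same comparison, 5.84% higher and 7.3% lower, so 5 of 37 (13.5%) is a share near the background. The median change was -0.01 (log2) over the members and 0.00 over all features. At an unadjusted p under 0.05 there were 9 members, 24.3%, against 23.1% of all features. For 34 of the 37 members the 95% confidence interval of the average change lay within 1.5-fold in either direction, as it did for 91.4% of all features. The 3 exceptions were Fbxo31, Fbxw7 and Fbxw5. Knockout against wild type, averaged over treatments and times, had 2 members past the threshold, Fbxo6 and Fbxo28, both higher, where 3.69% of all features passed and 1.99% were higher.

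**Figure D1:**
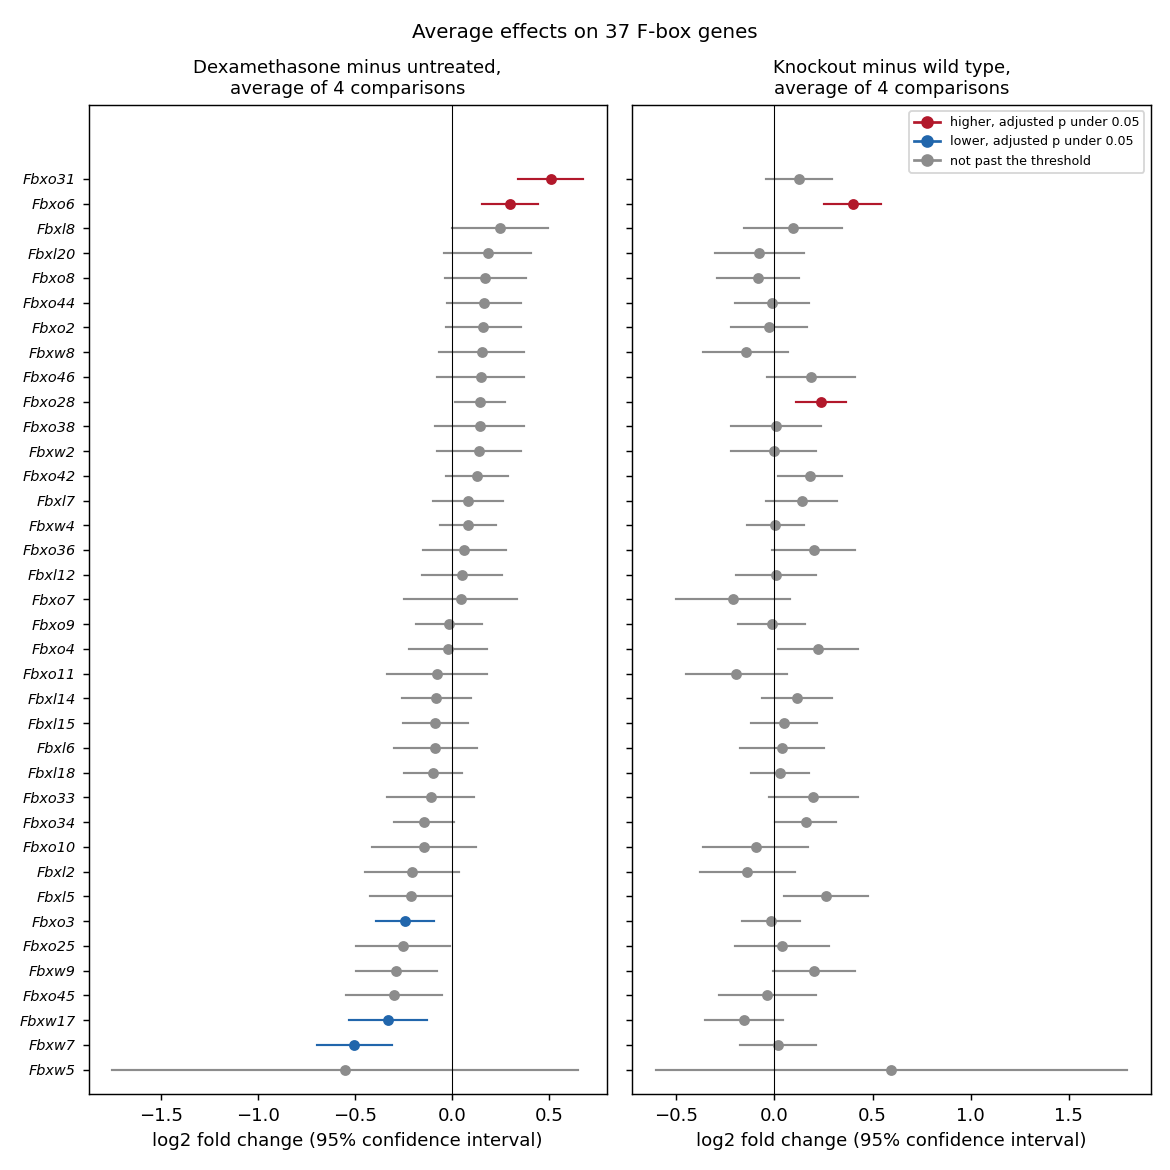
Average log2 fold change of each of the 37 F-box genes with its 95% confidence interval, for dexamethasone minus untreated (left) and knockout minus wild type (right), each averaged over 4 comparisons; colours mark the direction of genes past the threshold. Fbxo31 (0.51) and Fbxo6 (0.30) stand at the top of the left panel and Fbxw7 (-0.50) near the bottom, and the interval of Fbxw5 is the widest.

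The upstream sequences of Fbxo31 and Fbxw7 are shown because these genes had the largest rise and the largest fall with dexamethasone among the members past the threshold. Each runs from 250 bases before to 50 bases after the annotated start (RefSeq, GRCm38.p6), and capitals mark the GC box GGGCGG on either strand (CCGCCC on the other). The window of Fbxo31 is chr8:121578757-121579056 on the minus strand, and that of Fbxw7, its most upstream of 3 annotated starts, is chr3:84815327-84815626 on the plus strand.
Fbxo31: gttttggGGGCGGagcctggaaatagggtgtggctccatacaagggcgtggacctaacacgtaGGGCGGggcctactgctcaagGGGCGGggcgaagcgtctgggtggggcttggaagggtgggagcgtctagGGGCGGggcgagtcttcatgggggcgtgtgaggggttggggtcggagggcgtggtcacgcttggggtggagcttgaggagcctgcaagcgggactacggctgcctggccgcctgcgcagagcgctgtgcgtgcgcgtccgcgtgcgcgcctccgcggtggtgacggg
Fbxw7: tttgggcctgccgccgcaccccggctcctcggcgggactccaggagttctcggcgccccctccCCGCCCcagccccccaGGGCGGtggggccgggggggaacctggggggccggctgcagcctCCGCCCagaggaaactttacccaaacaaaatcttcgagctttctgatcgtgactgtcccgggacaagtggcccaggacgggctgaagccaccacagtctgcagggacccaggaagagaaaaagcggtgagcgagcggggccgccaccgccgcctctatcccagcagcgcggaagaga
The Fbxo31 window held 4 GC boxes with 69.7% G and C, and the Fbxw7 window 3 GC boxes with 69%, against a median of 52.7% over all promoters. The matching window of Fbxo6, at its most upstream of 3 starts, held 0 GC boxes with 53%. Promoters were found for 28 of the 37 kept members and for 5 of the 6 members past the threshold. Among the 41 promoters of members 27 (65.9%) held a GC box, against 35.7% of all 32851 promoters. The 41 belong to 28 genes and are not independent. Windows of neighbouring starts can overlap, as in Fbxo10 and Fbxl15, and then count the same box again. This motif was chosen after the sequences had been seen. All promoters here include those of genes without a kept probe, so the 2 sets also differ in detection. Among members past the threshold a GC box was in 1 of 1 promoter of Fbxo31 and of Fbxw17. It was in 2 of 3 of Fbxw7, 1 of 3 of Fbxo6 and 0 of 1 of Fbxo28. The full glucocorticoid response element, which is the half-site AGAACA, any 3 bases and its mirror TGTTCT, was in none of the 41 and in 3 of all promoters. The half-site alone, which the full element contains, was in 4 (9.76%) of the members' promoters against 19% of all, the FOXO motif TGTTTAC in none against 3.65%, and the E-box CACGTG in 4 (9.76%) against 7.15%, each read on both strands. No promoter of Fbxo31, Fbxo6, Fbxw7, Fbxw17 or Fbxo28 held any of these last 4 motifs, which says only that these letters are not in these windows.

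Fbxo31, which in human cells directs cyclin D1 to degradation, was the member with the largest rise. At 3 days it read 9.05, 8.83 and 8.99 (log2 signal) in treated knockout muscle, against 8.08, 8.49 and 8.19 in untreated knockout muscle. In wild type at 3 days it read 8.97, 8.78 and 8.99 in treated muscle, against 8.10, 8.30 and 8.35 in untreated muscle. All 3 treated arrays lay above all 3 untreated ones in both genotypes. The rise at 3 days was 0.70 in knockout (95% confidence interval 0.36 to 1.03, limma adjusted p = 0.00991) and 0.66 in wild type (0.33 to 1.00, adjusted p = 0.0182), or 1.62-fold and 1.58-fold. At this time 2 of 37 members passed in knockout and 1 in wild type, against 5.37% and 3.87% of all features.

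At 14 days Fbxo31 read 8.74, 8.72 and 8.46 in treated knockout muscle, against 7.87, 8.33 and 8.26 in untreated knockout muscle. In wild type at 14 days it read 8.18, 8.31 and 8.31 in treated muscle, against 7.99, 7.79 and 8.44 in untreated muscle. The knockout groups did not overlap, whereas 1 untreated wild-type array lay above all treated wild-type arrays. Neither 14-day difference passed, with 0.48 in knockout (adjusted p = 0.119) and 0.19 in wild type (adjusted p = 0.743, limma). The 14-day effect minus the 3-day effect was -0.47 in wild type (-0.95 to 0.00, adjusted p = 0.642), so a smaller effect at 14 days was not shown.

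Over the 4 comparisons the Fbxo31 rise averaged 0.51 (SE 0.081, 1.42-fold, limma adjusted p = 7.44e-05), and it passed without any 1 of the 24 arrays. A further Fbxo31 probe gave 0.76 in knockout (adjusted p = 0.00333) and 0.78 in wild type (adjusted p = 0.00308) at 3 days, and 0.49 on average (adjusted p = 6.92e-05), fitted with every kept probe as a feature. At 14 days this probe gave 0.30 in wild type (adjusted p = 0.459) and 0.11 in knockout (adjusted p = 0.834). In knockout it read 8.62, 8.41 and 8.16 in treated muscle, against 8.08, 8.36 and 8.43 in untreated muscle at that time. These groups overlapped, unlike those of the tested probe. The 3-day knockout value was 0.68 without the array that stood apart (adjusted p = 0.0371). The tested probe lost the 3-day call in knockout without untreated knockout array 1, at an adjusted p of 0.0572. In wild type it was lost without untreated array 1 or treated array 1 or 3, with adjusted p up to 0.10.

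**Figure D2:**
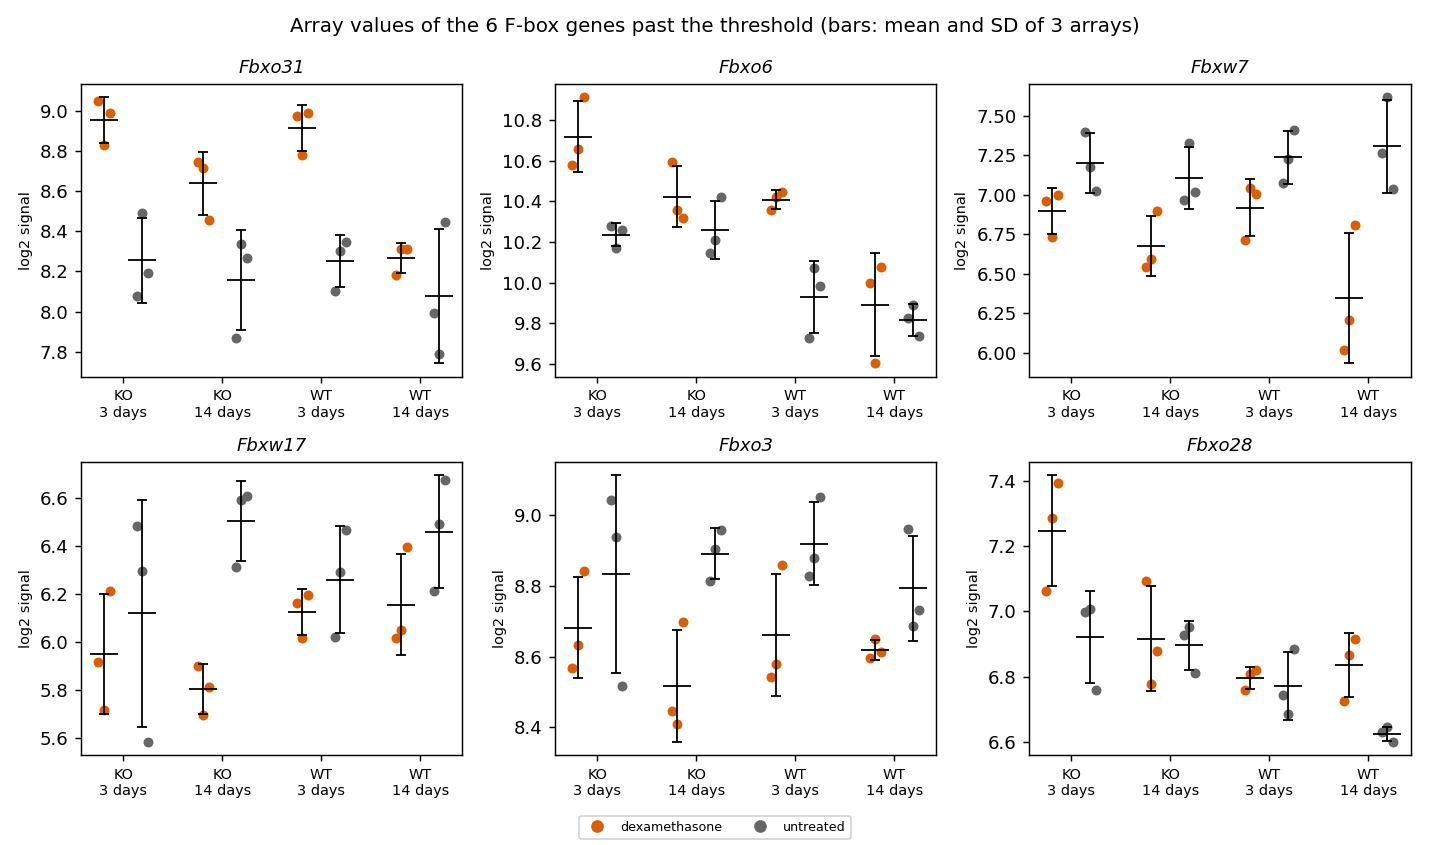
Log2 signal of the 6 F-box genes past the threshold in at least 1 comparison, on each array (points), with the mean and SD of 3 arrays (bars), for dexamethasone and untreated muscle side by side in each genotype and arm; each panel has its own axis, which does not start at 0. Fbxo31 separates the 3-day treated from the untreated arrays in both genotypes, and Fbxw7 is lowest in wild type treated for 14 days, at a mean of 6.35.

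Fbxo6, which binds sugar chains of misfolded glycoproteins, rose with dexamethasone and was also higher in the knockout. At 3 days it read 10.58, 10.66 and 10.91 in treated knockout muscle, against 10.28, 10.17 and 10.26 in untreated knockout muscle. In wild type at 3 days it read 10.36, 10.42 and 10.45 in treated muscle, against 9.73, 10.07 and 9.98 in untreated muscle. Treated and untreated arrays did not overlap in either genotype at 3 days. The difference was 0.48 (0.19 to 0.77) in both, with a limma adjusted p of 0.0465 in knockout and 0.0591 in wild type. The genotype difference of this effect was 0.00 (-0.41 to 0.41), so the call in 1 genotype marks no difference between them. At 14 days the change was 0.16 in knockout and 0.07 in wild type, with overlapping arrays. The average rise was 0.30 (SE 0.071, 1.23-fold, adjusted p = 0.00425). The 3-day call in knockout was kept without treated array 1 and lost without any other of the 6 arrays. Without treated knockout array 3, the one that stood apart, the difference was 0.38 (adjusted p = 0.237).

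Fbxw7, the adaptor for cyclin E, Myc and Notch, showed the largest fall among the members past the threshold. At 14 days it read 6.02, 6.21 and 6.81 in treated wild-type muscle, against 7.26, 7.62 and 7.04 in untreated wild-type muscle. In knockout at 14 days it read 6.54, 6.60 and 6.90 in treated muscle, against 6.97, 7.33 and 7.02 in untreated muscle. All treated arrays lay below all untreated arrays in both genotypes. The wild-type difference was -0.96 (-1.35 to -0.57, 1.95-fold lower, limma adjusted p = 0.00333), and it was the 1 member of 37 past the threshold there, where 3% of all features passed. The knockout difference of -0.43 (-0.81 to -0.04) did not pass (adjusted p = 0.286). The genotype difference at 14 days, 0.53 (-0.01 to 1.08, adjusted p = 1.00), did not pass either.

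At 3 days Fbxw7 read 6.96, 6.73 and 7.0 in treated knockout muscle, against 7.40, 7.18 and 7.02 in untreated knockout muscle. In wild type it read 6.71, 7.04 and 7.0 in treated muscle, against 7.08, 7.23 and 7.41 in untreated muscle. The treated arrays again lay below the untreated ones, with differences of -0.30 in knockout and -0.32 in wild type, neither past the threshold. Averaged over the 4 comparisons Fbxw7 fell by 0.50 (SE 0.094, 1.42-fold lower, adjusted p = 0.000455). Both this call and the 14-day wild-type call were kept without any 1 array, the second with a difference of -1.19 to -0.80.

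Fbxw17, an F-box protein with WD40 repeats, read 5.90, 5.70 and 5.81 in treated knockout muscle at 14 days, against 6.31, 6.59 and 6.61 in untreated knockout muscle. These groups did not overlap, and the difference of -0.70 (-1.10 to -0.30, 1.63-fold lower) had a limma adjusted p of 0.0436. It was the 1 member past the threshold in that comparison, where 3.27% of all features passed. The call was kept without untreated array 1 and lost without any other of the 6 arrays, with adjusted p up to 0.173. In the other 3 comparisons the changes were -0.17 in knockout at 3 days, -0.13 in wild type at 3 days and -0.31 in wild type at 14 days, all with overlapping arrays. The average fall was 0.33 (SE 0.097, adjusted p = 0.0232), which fell short without untreated knockout array 1 or untreated wild-type array 3 of the 3-day arm (adjusted p up to 0.0521).

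Fbxo3, known for directing another F-box protein, Fbxl2, to degradation, passed only as an average over the 4 comparisons. It read 8.44, 8.41 and 8.70 in treated knockout muscle at 14 days, against 8.81, 8.90 and 8.96 in untreated knockout muscle, a difference of -0.37 (adjusted p = 0.193). The other differences were -0.15 in knockout at 3 days, -0.26 in wild type at 3 days and -0.17 in wild type at 14 days. Their average was -0.24 (SE 0.072, 1.18-fold lower, limma adjusted p = 0.0266), and the call was lost without any 1 of 7 of the 24 arrays (adjusted p up to 0.0582). These were untreated knockout arrays 1 and 2, untreated wild-type array 3 and treated wild-type arrays 1 and 2 of the 3-day arm, and treated knockout array 2 and untreated wild-type array 1 of the 14-day arm. Fbxl2 itself read 6.14, 6.05 and 6.25 in wild-type muscle treated for 3 days, against 6.69, 6.85 and 6.55 in untreated wild-type muscle. The 2 groups did not overlap, but the difference of -0.55 (-1.03 to -0.07) did not pass (adjusted p = 0.270). At 14 days in wild type the Fbxl2 difference was 0.00 (-0.48 to 0.49).

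Several uncalled members had groups that did not overlap. Fbxo45, which is needed in mice to form neuromuscular synapses, read 8.32, 8.05 and 7.46 in treated knockout muscle at 3 days, against 8.34, 8.36 and 8.93 in untreated knockout muscle. In wild type at 3 days it read 8.02, 8.03 and 7.41 in treated muscle, against 8.53, 8.26 and 8.22 in untreated muscle. The treated arrays lay below the untreated ones in both genotypes, and array 3 was lowest in each treated group. The differences were -0.60 (adjusted p = 0.158) in knockout and -0.52 (adjusted p = 0.329) in wild type, and the knockout value was -0.36 without treated array 3. At 14 days they were 0.04 in knockout and -0.12 in wild type. Groups that did not overlap were about as frequent among the members as among all features, with 6 of 37 in knockout and 9 of 37 in wild type at 3 days, against 19.2% and 22.6% of all features. At 14 days there were 6 in knockout and 7 in wild type, against 17.3% and 19.6%.

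The members of lowest average change after Fbxw5, Fbxw7, Fbxw17 and Fbxo45 (-0.30) were Fbxw9, at -0.29 (limma adjusted p = 0.0642), and Fbxo25, at -0.25 (adjusted p = 0.191). Fbxo25 is known for acting on cardiac transcription factors. In knockout at 14 days Fbxo25 read 6.19, 5.48 and 6.24 in treated muscle, against 6.57, 6.81 and 6.38 in untreated muscle, with a difference of -0.62 (adjusted p = 0.180). The highest after Fbxo31 and Fbxo6 were Fbxl8 at 0.25, Fbxl20 at 0.18 and Fbxo8 at 0.17, with adjusted p between 0.217 and 0.349. Fbxw9 and Fbxl8 were detected on 13 and 19 of the 24 arrays, so their values are those of signals near background. Among members of known role, the averages were -0.21 for the iron sensor Fbxl5, 0.05 for the mitophagy factor Fbxo7, -0.08 for the Bcl6 adaptor Fbxo11 and 0.15 for the Cul7 partner Fbxw8. Fbxo11 read 7.39, 7.17 and 6.01 in treated knockout muscle at 3 days. The last is the array that stood apart, so the sign of the Fbxo11 average is not secure. For Fbxo9, a bright probe whose product acts on Tel2 and Tti1, the average was -0.01 with a 95% confidence interval of -0.18 to 0.16.

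**Figure D3:**
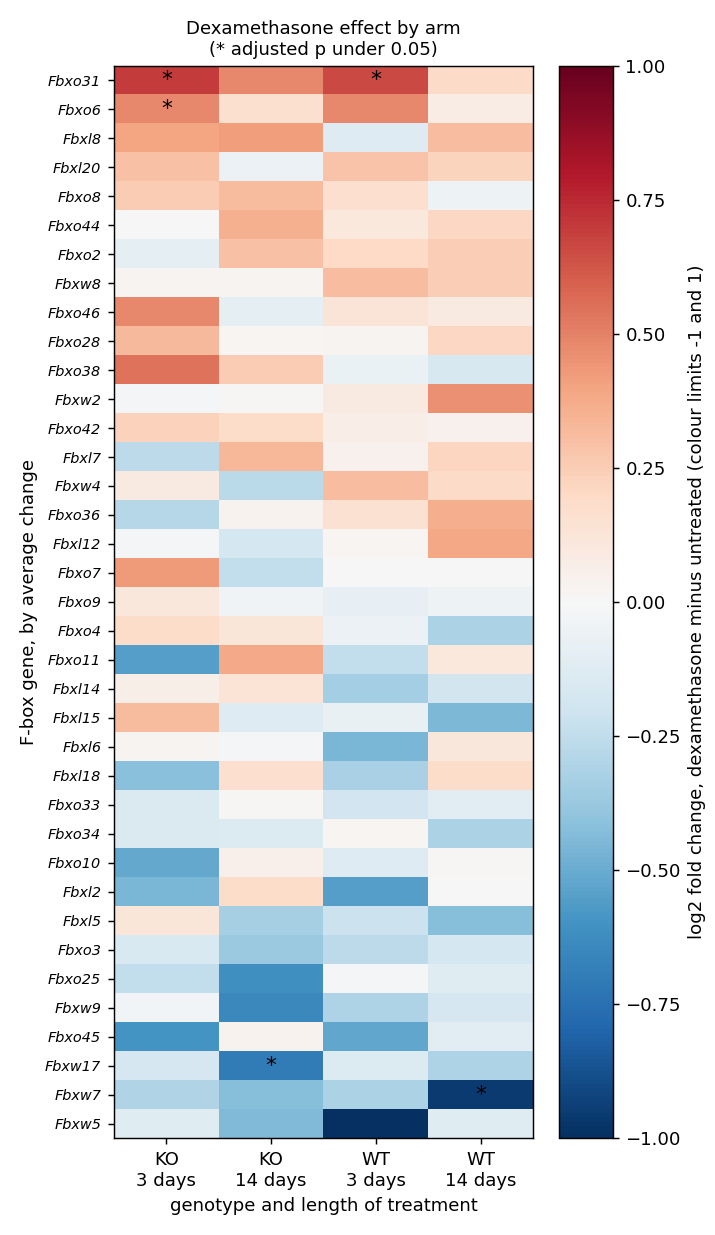
Log2 fold change of dexamethasone minus untreated for each of the 37 F-box genes (lines, ordered by average change) in each genotype and length of treatment (columns); red is higher with dexamethasone, blue lower, colours are limited at -1 and 1, and stars mark adjusted p under 0.05. There are 5 stars, for Fbxo31 (2 columns), Fbxo6, Fbxw17 and Fbxw7.

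Of the 37 members 12 (32.4%) had the same sign in all 4 dexamethasone comparisons, which use separate arrays, against 24% of all features. The 6 higher ones (16.2%, against 10.9%) were Fbxo6, Fbxo28, Fbxo31, Fbxo42, Fbxo44 and Fbxw8, and the 6 lower ones (16.2%, against 13%) Fbxo3, Fbxo25, Fbxw5, Fbxw7, Fbxw9 and Fbxw17. Fbxo44 counts as higher in knockout at 3 days on means of 5.176 treated and 5.174 untreated. Its other kept probe was lower with dexamethasone in knockout at both times and in wild type at 14 days, and higher in wild type at 3 days. Across the 37 genes, which are not independent, the dexamethasone changes in knockout and wild type correlated with r = 0.48 at 3 days and 0.48 at 14 days, against 0.64 and 0.59 over all features. Between 3 and 14 days r was 0.18 in knockout and 0.36 in wild type, against 0.23 and 0.46. By rank these member correlations were 0.12 and 0.53. The r values include Fbxw5, whose 3-day differences rest on single arrays. The sign was the same at both times for 19 members in knockout and 28 in wild type, against 49.7% and 55.9% of all features. Between genotypes it was the same for 22 members at 3 days and 25 at 14 days, against 64.8% and 63.8%. No member passed as a difference of the dexamethasone effect between genotypes or times, where 0% and 0.0123% of all features passed between genotypes at 3 and 14 days, and 0.129% in knockout and 0.148% in wild type between times. At an unadjusted p under 0.05 there were 0 members for the genotype difference at 3 days, 1 at 14 days, 4 for the time difference in knockout and 2 in wild type. Over all features these shares were 4.3%, 4.86%, 15% and 7.83%, in the same order. The intervals were wide, and 3 to 5 of 37 members (8.11% to 13.5%) had one within 1.5-fold, against 19.2% to 25.5% of all features.

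Genotype was compared next, because the MuRF1 knockout lacks another ubiquitin ligase of muscle. Fbxo6 was higher by 0.40 in knockout than in wild type (SE 0.071, 1.32-fold, limma adjusted p = 0.00137), averaged over treatments and times. Its knockout and wild-type arrays did not overlap in any of the 4 matched comparisons. At 14 days the untreated knockout arrays read 10.15, 10.21 and 10.42, against 9.83, 9.89 and 9.74 in untreated wild type, a difference of 0.44 (adjusted p = 0.255). The treated knockout arrays of that arm read 10.59, 10.36 and 10.32, against 9.996, 9.60 and 10.08 in treated wild type, a difference of 0.53 (adjusted p = 0.0929). At 3 days the difference was 0.31 with dexamethasone and 0.31 without. The average call was kept without any 1 array.

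Fbxo28, reported in human cells to ubiquitinate Myc, was higher in knockout by 0.24 (SE 0.062, 1.18-fold, adjusted p = 0.0312, limma). With 3 days of dexamethasone it read 7.06, 7.29 and 7.39 in knockout, against 6.76, 6.81 and 6.82 in wild type, with no overlap (0.45, adjusted p = 0.123). In untreated muscle at 14 days it read 6.93, 6.95 and 6.81 in knockout, against 6.63, 6.65 and 6.60 in wild type, again with no overlap (0.27, adjusted p = 0.458). The other differences were 0.15 in untreated muscle at 3 days and 0.08 with 14 days of dexamethasone, both with overlapping arrays. The average call was lost without any 1 of 10 of the 24 arrays (adjusted p up to 0.0636). In the 3-day arm these were treated knockout array 3, untreated knockout arrays 1 and 2, and arrays 1 and 2 of both wild-type groups, and in the 14-day arm treated knockout array 1, untreated knockout array 2 and treated wild-type array 1.

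No member passed in any single knockout comparison, by limma. Over all features 0.326% passed in untreated muscle at 3 days, 0.351% in untreated muscle at 14 days, 0.517% with dexamethasone at 3 days and 0.603% with dexamethasone at 14 days. At an unadjusted p under 0.05 there were 1 member in untreated muscle at 3 days, 4 in untreated muscle at 14 days, 3 with dexamethasone at 3 days and 4 with dexamethasone at 14 days. Over all features these shares were 6.52%, 10.3%, 11% and 11.4%, in the same order. After Fbxo6 and the uneven Fbxw5, the highest average was that of Fbxl5, at 0.26 (0.05 to 0.47, adjusted p = 0.154). The lowest were Fbxo7 at -0.21, Fbxo11 at -0.19 and Fbxw17 at -0.16, with adjusted p between 0.394 and 0.428. The Fbxo11 average rests in part on the array that stood apart, which read 6.01, against 7.39 and 7.17 on the other treated knockout arrays at 3 days. Fbxo7 was detected on 16 of the 24 arrays, so its value is that of a signal near background. Of the members 10 (27%) had the same sign in all 4 knockout comparisons, against 24.9% of all features, 8 of them (21.6%) higher, against 13.8%, and Fbxo7 and Fbxl2 lower, against 11%. Arrays of the genotypes did not overlap for 4 and 7 members in untreated muscle at 3 and 14 days, against 13.2% and 13.9% of all features, and for 4 and 8 members with dexamethasone, against 15.2% and 18.5%. In untreated muscle all of these were higher in knockout (10.8% and 18.9%, against 6.62% and 8.62% of all features), and 0 were lower, against 6.53% and 5.25%. With dexamethasone 3 and 5 were higher, against 8.51% and 10.2%, and 1 and 3 lower, against 6.71% and 8.3%. Untreated muscle of the 14-day arm against that of the 3-day arm gave 0 members by limma, where 0.178% of all features passed, and 5 (13.5%) at an unadjusted p under 0.05, against 10.2% of all features.

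Fbxo6, Fbxo44 and Fbxo2, close relatives in the branch that holds the glycoprotein-binding F-box proteins, are neighbours on chromosome 4, in that order. Trim63, the deleted gene, is on the same chromosome, as are Fbxo42 and Fbxo10. Of the named genes on chromosome 4, 67 of 648 (10.3%) passed in the averaged knockout comparison, against 342 of 10344 (3.31%) on the other chromosomes. Among the numbered chromosomes the next were chromosome 8, at 43 of 580 (7.41%), and chromosome 13, at 5.87%. The part of the chromosome 4 share in the Fbxo6 difference was not tested. The averaged knockout differences were 0.18 (adjusted p = 0.199) for Fbxo42, -0.03 for Fbxo2 and -0.10 for Fbxo10. Fbxo2 was detected on 12 of the 24 arrays, so its value does not show an absence of change.

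The 2 kept probes of Fbxo44 disagreed. The brighter, tested probe gave -0.01 for knockout against wild type (adjusted p = 0.957). It had a mean of 4.98 and was detected on 8 of 12 knockout and 12 of 12 wild-type arrays, so its value does not show an absence of change. Probe ILMN_1229019 was dimmer by the mean over all arrays, though brighter within wild type. It ranged from 4.35 to 4.94 on the 12 knockout arrays (median 4.51, detected on 2). On the 12 wild-type arrays it ranged from 4.98 to 5.51 (median 5.25, detected on 12). Every knockout array lay below every wild-type array. Its averaged difference was -0.70 (SE 0.080, limma adjusted p over all kept probes = 3.16e-06), and with 3 days of dexamethasone it was -0.82 (adjusted p = 0.0146). Since most knockout arrays did not detect it, the size is that of a signal near background. This probe also met the detection filter only through its wild-type arrays, where it is high. Its p values are therefore not independent of the filter.

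**Figure D4:**
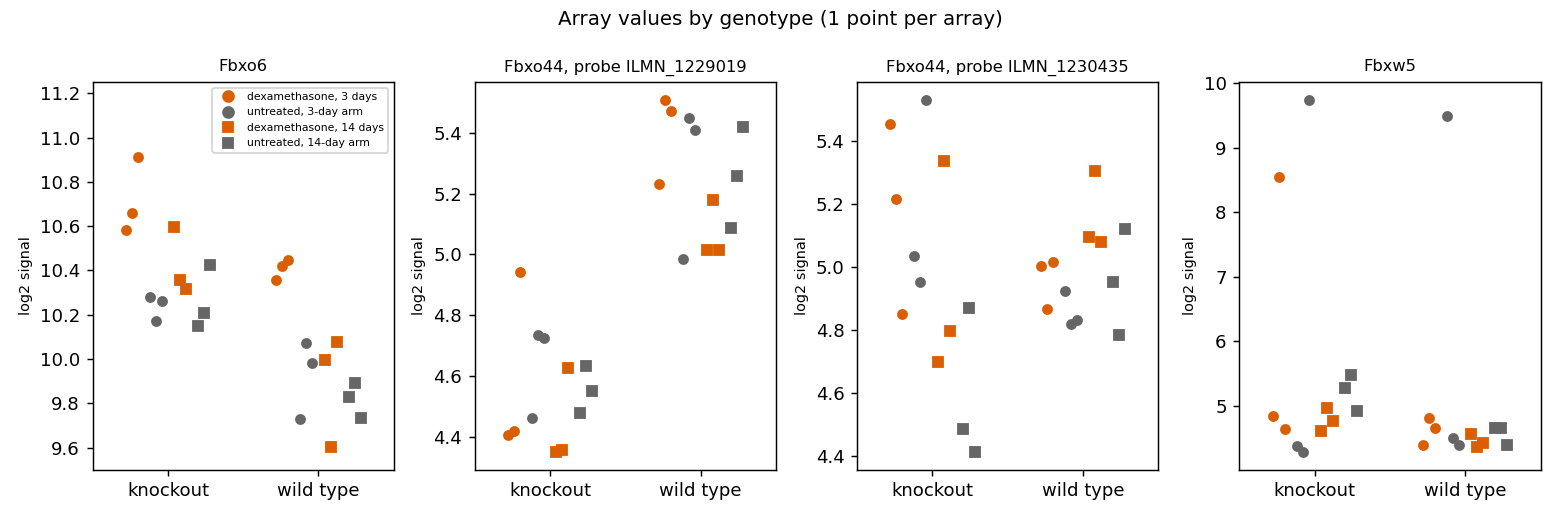
Log2 signal on each array for Fbxo6, the 2 kept probes of Fbxo44 and Fbxw5, with knockout left and wild type right; circles are the 3-day arm, squares the 14-day arm, orange dexamethasone and grey untreated, and each panel has its own axis. Probe ILMN_1229019 of Fbxo44 separates the genotypes (at most 4.94 in knockout, at least 4.98 in wild type), while Fbxw5 is high on 3 arrays of 3 different groups.

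Fbxw5, an adaptor for the centriole protein Sas-6, was high on 3 arrays of 3 different groups. It read 9.74 on untreated knockout array 3, 9.49 on untreated wild-type array 1 and 8.55 on treated knockout array 2, all of the 3-day arm, against 4.28 to 5.47 on the other 21 arrays. The authors' value table also had a high array in each of these groups, at 840, 702 and 358 units. Of the 16262 features Fbxw5 was the 1 with these 3 arrays at least 2 log2 units above all others. Its dexamethasone difference in wild type at 3 days was -1.51 (SE 1.16, limma adjusted p = 0.703), and 0.17 without that untreated array 1. In knockout at 3 days it was -0.12, and 1.68 without untreated knockout array 3. At 14 days the untreated arrays read 5.27, 5.47 and 4.92 in knockout, against 4.66, 4.65 and 4.39 in wild type. The treated arrays of that arm read 4.60, 4.97 and 4.76 in knockout, against 4.56, 4.36 and 4.41 in wild type. The genotypes did not overlap in either, and neither difference passed, at 0.65 (limma adjusted p = 0.872) and 0.33 (adjusted p = 0.949), each with an SE of 1.16. That SE is pooled over all 8 groups and holds the 3 high arrays of the 3-day arm. These p values therefore do not measure the spread of the 14-day arrays alone. The probe was detected on 8 of 12 knockout arrays and 2 of 12 wild-type arrays. It thus met the detection filter only through knockout, so its genotype differences are not independent of the filter.

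The rest of the machinery was read from lists of related genes. Of the SCF core and neddylation list 17 of 23 genes were tested, and 1 passed in the averaged dexamethasone comparison. This was Skp1, the link between Cul1 and every F-box protein, higher by 0.27 (SE 0.069, limma adjusted p = 0.00880). With dexamethasone, Dcun1d3, a neddylation factor, was higher in knockout at 3 days by 0.86 (adjusted p = 0.0306), and Ube2g1, a ubiquitin-conjugating enzyme, was lower in wild type at 14 days (-0.47, adjusted p = 0.0446). None of this list passed in the averaged knockout comparison, and none of the 9 COP9 signalosome genes, 6 other cullins and 5 F-box genes under other symbols passed in either average.

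The 4 atrophy genes left out of the members set the scale. Fbxo32 was higher with dexamethasone by 1.62 (SE 0.12, limma adjusted p = 2.96e-10) on average, and by 1.43 to 1.81 in each of the 4 comparisons. Fbxo40, which acts on insulin receptor substrate 1, was lower (-0.23, adjusted p = 0.0140). Fbxo30, at 0.28 (adjusted p = 0.230), and Fbxo21, at -0.06 (adjusted p = 0.823), did not pass.

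Markers of other cells moved with dexamethasone too. In the averaged comparison 3 of 4 fibroblast markers were lower, with a summed signal of 5623 to 7585 on treated arrays and 7339 to 11220 on untreated arrays. Of the 3 macrophage markers tested 2 were lower (130.7 to 188.5 on treated arrays, 198.3 to 333.9 on untreated arrays). All 4 red blood cell markers were lower (7138 to 65880 on treated, 34380 to 66620 on untreated arrays). They were lower at 3 days, 4 of 4 in each genotype, with medians of -2.18 in knockout and -2.20 in wild type, and none passed at 14 days, with medians of 0.17 and 0.04. The 14-day effect differed from the 3-day effect for 3 of 4 in each genotype. Cdh15, the 1 of 3 satellite cell markers tested, was higher by 0.45 on average (SE 0.083, limma adjusted p = 0.000395), and its signal was 135.6 to 245.6 on treated and 99.85 to 178.7 on untreated arrays. It passed at 3 days, at 0.77 in knockout and 0.68 in wild type, and at 14 days it was 0.15 and 0.21 without passing. Of the 4 endothelial markers 1 was higher and 1 lower on average (369.5 to 517.9 on treated, 398.6 to 529.6 on untreated arrays), and 3 of 5 adipocyte markers were higher (765.9 to 2665 on treated, 533.1 to 1242 on untreated arrays). None of the 3 lymphocyte markers had a kept probe, and none of the fibroblast, macrophage, red blood cell, satellite cell, endothelial or adipocyte markers passed in the averaged knockout comparison. Their part in the changes of the F-box genes, those at 3 days included, was not tested. In whole muscle, fewer cells of a type and less RNA per cell cannot be told apart.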

How the data were processed

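Muscle RNA was made into biotinylated cRNA for Illumina beadchips, per the labels, and the submitters' processing notes name BeadStudio 3.2.3. One deposited table gave the non-normalized signal intensity of 46632 probes on 24 arrays. Beside each intensity stood a detection p-value, per the file headers. A further deposited table held the authors' processed intensity values, which read as background-subtracted and normalized; it was used, floored at 16, only for comparison. Columns that could not be tied to a sample numbered 0. Its replicate numbers differ from those of the first table, whose numbers are used here.

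Background correction, quantile normalization and the log2 step, with an offset of 16, were those of neqc (limma 3.58.1, R 4.3.3). Probes with a detection p under 0.05 on at least 3 arrays were kept, 20769 in all. Of several kept probes of a gene the one of highest mean signal over all arrays was tested. The limma model had 8 group means and 16 residual degrees of freedom, from which 15 comparisons were drawn, and p values were adjusted by Benjamini and Hochberg over all 16262 features within each comparison. Averages weight the 4 matched comparisons equally. The number of arrays limits the precision. On simulated data of 16262 genes, the average dexamethasone comparison recovered 89% of genes changed 1.5-fold and 100% of those changed 2-fold, with 19 false calls. For dexamethasone in wild type at 3 days the shares were 29% and 85%, with 3 false calls. For the average knockout comparison they were 91% and 100%, with 12 false calls. For the genotype difference of the dexamethasone effect at 3 days they were 3% and 36%, with 2 false calls. Differences of these sizes between genotypes were thus mostly missed in the simulated data.

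The members and lists were chosen with earlier results of these data known. Named with values were members past the threshold in any comparison, the 5 highest and 5 lowest by average dexamethasone change, the 3 highest and 3 lowest by average knockout change, the 6 brightest, members whose probes disagree in a call, and members of known role. Same-numbered arrays of the groups compared had residual correlations of -0.474 to 0.498, with 7 of 24 pairs above 0.1, so the numbers were not taken as pairs. In 1 comparison, knockout against wild type with 3 days of dexamethasone, all 3 correlations were above 0.1 (0.318, 0.133 and 0.498), and the replicate block gave 0 members there, as the fit without it did. Alternatives were the authors' value table, an offset of 50, no detection filter, every kept probe as a feature, only the groups compared, a replicate block, array quality weights and each array left out in turn.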

Additional observations from a re-analysis of the deposited data

How the results depend on the processing

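With array quality weights estimated from the data, the count of members past the threshold was 11 for the average dexamethasone effect (5 with equal weights), 5 in knockout at 3 days (2), 4 in knockout at 14 days (1) and 4 in wild type at 3 days (1). All features moved too, with 24.3%, 13%, 17.6% and 10.2% past it under the weights, in the same order. For knockout against wild type the weighted counts were 4 with dexamethasone at 3 days, 1 with dexamethasone at 14 days and 5 in untreated muscle at 14 days, and 1 for untreated 14-day against untreated 3-day arms, where each was 0 with equal weights. Of all features 10.5%, 1.25%, 16.5% and 3.81% passed there. For the average knockout effect there were 3 members (2 with equal weights), with 15.2% of all features. The other alternatives that gave a value had 1.69% to 5.55% of all features past the threshold in wild type at 3 days and 5.64% to 13.8% for the average dexamethasone effect. The shares were 1.21% to 6.07% in knockout at 3 days, 1.33% to 3.92% in knockout at 14 days and 1.6% to 4.3% for the average knockout effect. For knockout against wild type with dexamethasone they were 0.16% to 0.603% at 3 days and 0.221% to 0.793% at 14 days. The authors' value table gave 6 members for the average dexamethasone effect, with Fbxo28 at 0.17 (adjusted p = 0.0444), and 3 for the average knockout effect, with Fbxo44 at -0.47 (adjusted p = 0.00552). It gave 0 members in knockout at 14 days, 2 in wild type at 3 days and 1 for knockout against wild type with dexamethasone at 3 days. An offset of 50 gave 2 in wild type at 3 days and 1 for each knockout comparison with dexamethasone. Without a detection filter there were 0 in knockout at 14 days and 2 in wild type at 3 days. With only the groups compared there were 0 in knockout at either time and 2 in wild type at 3 days. With every kept probe as a feature there were 3 for the average knockout effect, with the dimmer Fbxo44 probe at -0.70 (adjusted p = 3.16e-06), 1 in knockout at 3 days and 1 for knockout against wild type with dexamethasone at 3 days. That Fbxo44 probe was kept only through its wild-type arrays. With the replicate block, for numbers not shown to pair the samples, there was 1 in knockout at 3 days and 0 in knockout at 14 days. With 1 array left out the counts ranged over 3 to 6 for the average dexamethasone effect, 1 to 3 for the average knockout effect, 0 to 2 in knockout at 3 days, 0 to 1 in knockout at 14 days, 0 to 1 in wild type at 3 days and 1 to 1 in wild type at 14 days, and stayed at 0 elsewhere. The calls of Fbxo31 and Fbxw7 in wild type and those of all averages kept their side under every alternative other than leaving out arrays. The 3-day knockout call of Fbxo31 was lost with only the groups compared (adjusted p = 0.111). That of Fbxo6 was lost under 3 alternatives (adjusted p up to 0.257) and the 14-day knockout call of Fbxw17 under 4 (up to 0.0854). Of 333 uncalled values of the named members 21 gained a call under at least 1 of these alternatives. Among them Fbxl2 in wild type at 3 days passed with array weights (-0.62, adjusted p = 0.00594) and with only the groups compared (-0.55, adjusted p = 0.0319). The sign turned for Fbxo44, knockout against wild type with dexamethasone at 3 days, at -0.82 with every kept probe, where the other probe was taken, and for Fbxw5 in knockout at 3 days, at 2.89 with array weights. Leaving out 1 array also turned the sign of Fbxw5, so its same sign in all 4 dexamethasone comparisons rests on those arrays. The cause of these changes was not tested. Signal over background limits Fbxl18, Fbxw5 and the dimmer Fbxo44 probe. Detection was also incomplete for Fbxo2, Fbxw9, Fbxl7, Fbxo7 and Fbxl8, on 12, 13, 16, 16 and 19 of the 24 arrays. The tested Fbxo44 probe was detected on 20, Fbxl14 on 21, and Fbxl12, Fbxl20 and Fbxo36 on 22 each. For these genes a change, or the lack of one, is that of a signal near background.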
